A study of Mus musculus with 6 samples.

Results

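In a myeloid progenitor line, 9 genes moved in opposite directions after transfer of 2 monocyte-lineage transcription factors: their signal was lower in cells labelled as given IRF8 and higher in cells labelled as given KLF4 than in control cells. They are Ces2b and Ces2c, Jam2, Vcam1 and Ly6a, Ffar2, Vill and Abi3, and Orm2. They are 9 of 20263 genes matched on the array and were chosen because their signal fell in the first comparison and rose in the second, so their own differences are given as a description with no test. All 9 were matched, by 13 probes, and all 9 passed the filter on dim probes.

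The cells were Tot2, a line of myeloid progenitors from an Irf8 knockout mouse, so that every group, control included, carried the knockout. They were transduced with the retroviral vector MSCV-puro alone (control), with MSCV carrying FLAG-tagged IRF8, or with MSCV carrying FLAG-tagged KLF4. All cells were grown in 5 ng/ml GM-CSF, put under puromycin (2 µg/ml) 48 hr after they were transduced in 4 µg/ml polybrene, and RNA was taken on day 4. Each group had 2 arrays, 1 from each of 2 independent experiments. Arrays with the same replicate number are taken here as the same experiment, which is an assumption. The model is a single line in which a retroviral vector drives the added factor.

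IRF8 and KLF4 are both needed for monocyte development. IRF8 binds DNA mainly together with partners such as PU.1, at sites that join an Ets and an IRF element, and it also holds back the granulocyte programme. KLF4 is a zinc finger factor that binds GC-rich and CACCC boxes, and it can activate or repress. The 9 genes fall into ester hydrolases, surface proteins of adhesion and cell identity, a receptor for short-chain fatty acids, regulators of actin, and a secreted acute phase protein.

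RNA was hybridised in a single colour, and values are log2 signal relative to the 75th percentile of each array. That percentile lay at an intensity of 436 to 974, and 47.1 to 56.8% of probes were well above background. The lowest signal well above background on an array, its floor, lay between log2 -5.42 and -4.32, which limits how far a fall can be followed. Above or below background means here that the probe was or was not marked as well above background. Where a group had no such array, a fold is given as a lower bound. For it each array of that group was set at the higher of its floor and its own signal. The Irf8 probe read 0.49 and 0.64 in control, 2.94 and 3.05 in IRF8-labelled and 2.18 and 2.16 in KLF4-labelled cells. The Klf4 probe read -1.62 and -1.28 in control, 4.46 and 4.61 in IRF8-labelled and -1.56 and -1.33 in KLF4-labelled cells, so it was no higher on the arrays labelled KLF4 than on control arrays (log2 difference 0.00, 95% interval -0.40 to 0.41). Whether this probe lies in the transferred sequence is not given in the sources used here, and the groups are therefore called by their labels. Of 10 myeloid progenitor markers, 9 were above background on all 6 arrays and Kit was on none. The liver genes Alb, Apoa1, Apob, Ttr and Ahsg were above background on no array, whereas Serpina1a was on all 6. Of endothelial genes, Tek, Tie1, Emcn and Erg were on none and Kdr, Egfl7 and Plvap on all 6. Of fibroblast genes, Dcn, Lum, Pdgfra, Pdgfrb, Fn1 and Postn were on none and Thy1 on all 6. The other genes of these lists on the array, among them Cyp2e1 and Vwf, were above background on some arrays.

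RefSeq promoter windows (GRCm38.p6, 250 bases before to 50 after a start) were at hand for Ces2c, Ffar2, Vill and Orm2, in 7 windows, and not for the other 5 genes, Ces2b, Jam2, Ly6a, Abi3 and Vcam1. They are shown because the genes move together under 2 factors whose binding letters are known. Capitals mark any match, on either strand, to the interferon response core (GAAA, any 2 bases, GAAA), the Ets and IRF composite (GGAA, any 2 bases, GAAA) or CCNCNCCC (GC box and KLF). The former pair differ only in their second letter, and matches to the third may overlap each other.
Ffar2, chr7:30821599-30821898, minus strand: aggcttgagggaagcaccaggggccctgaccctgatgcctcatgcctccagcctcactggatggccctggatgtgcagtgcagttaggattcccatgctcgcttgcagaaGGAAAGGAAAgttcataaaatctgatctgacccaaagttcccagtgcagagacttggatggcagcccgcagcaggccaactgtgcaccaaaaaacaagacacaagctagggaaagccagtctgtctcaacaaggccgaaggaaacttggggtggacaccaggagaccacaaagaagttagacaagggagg
Ffar2, chr7:30821143-30821442, minus strand: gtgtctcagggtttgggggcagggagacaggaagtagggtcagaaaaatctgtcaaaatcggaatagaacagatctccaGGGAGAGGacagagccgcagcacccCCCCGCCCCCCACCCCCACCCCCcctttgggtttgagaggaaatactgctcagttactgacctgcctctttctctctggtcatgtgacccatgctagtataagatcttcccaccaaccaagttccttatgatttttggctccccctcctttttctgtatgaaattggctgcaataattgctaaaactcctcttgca
Vill, chr9:119052528-119052827, plus strand: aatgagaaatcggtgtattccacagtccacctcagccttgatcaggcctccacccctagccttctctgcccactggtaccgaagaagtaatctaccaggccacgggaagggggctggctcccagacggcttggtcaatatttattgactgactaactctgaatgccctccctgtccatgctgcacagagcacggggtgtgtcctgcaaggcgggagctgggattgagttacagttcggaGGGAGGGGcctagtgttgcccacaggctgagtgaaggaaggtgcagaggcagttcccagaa
Ces2c, chr8:104846818-104847117, plus strand: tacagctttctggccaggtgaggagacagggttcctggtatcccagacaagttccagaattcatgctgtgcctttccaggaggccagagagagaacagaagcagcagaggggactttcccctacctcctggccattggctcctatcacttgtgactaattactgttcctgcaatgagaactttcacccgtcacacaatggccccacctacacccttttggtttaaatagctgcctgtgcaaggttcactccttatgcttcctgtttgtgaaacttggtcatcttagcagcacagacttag
The first Ffar2 window holds 1 match to the composite motif, which occurs in 2.72% of all 32851 windows. The second Ffar2 window, at another annotated start, holds 7 matches to the GC box motif, most of them overlapping in a run of C, and the Vill window holds 1. A Ffar2 window that overlaps the second, not printed, holds the same 7 matches. The remaining Ffar2 window and the Orm2 window, also not printed, hold no match to any of the 3 motifs. The GC box motif is common, in 3 of the 7 windows and in 49.5% of all windows. The interferon response core, in 3.44% of all windows, matched none of the 7 windows, and the Ces2c window, the only one at hand for the esterases, held no match to any of the 3 motifs. A match is a run of letters and does not show that a factor binds there.

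The paralogues Ces2b and Ces2c code for carboxylesterases, enzymes that cleave ester bonds in lipids and drugs, and stand next to each other on chromosome 8. Ces2b signal was -2.95 and -2.62 in control, -6.63 and -6.00 in IRF8-labelled and -0.93 and -0.64 in KLF4-labelled cells. The 3 groups did not overlap, and both IRF8-labelled arrays were below background. The log2 difference from control was -3.53 with IRF8 and 2.00 with KLF4 (SE 0.25, n = 2 arrays per group), that is at least 4.65-fold lower and 3.99-fold higher. Between the transduced groups the signal differed by at least 18.6-fold. Because the fall is a bound, its place among the falls of the 9 genes is not settled.

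Ces2c signal was -3.52 and -3.05 in control, -5.37 and -4.71 in IRF8-labelled and -0.50 and -0.47 in KLF4-labelled cells. Relative to control, the log2 differences were -1.75 and 2.80 (SE 0.27, n = 2), or 3.36-fold lower and 6.97-fold higher. Only 1 of 2 IRF8-labelled arrays was above background. The other probes of the gene ordered the groups the same way, with differences of -1.96 and 3.60 for one and -2.29 and 3.25 for the other. The latter fall is at least 2.79-fold, since that probe was above background on neither IRF8-labelled array. Probes of carboxylesterase paralogues may read more than 1 gene, and no probe sequence was used here to tell them apart.

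Other carboxylesterases moved differently. Of 17 listed, 15 were on the array and only 2 were bright enough to test, and both fell in both comparisons. Ces2g, in the same cluster, read 0.35 and 0.39 in control, -3.38 and -3.41 in IRF8-labelled and -1.42 and -1.46 in KLF4-labelled cells. It thus fell by 3.76 on the log2 scale with IRF8 (adjusted p = 1.14e-05) and fell by 1.81 with KLF4 (adjusted p = 0.000213). Ces1d, a lipid hydrolase of adipose tissue and liver, was at least 2.60-fold lower with IRF8 (adjusted p = 0.000479) and at least 2.93-fold lower with KLF4 (adjusted p = 0.0163). Its KLF4 call was lost with either KLF4-labelled or either control array left out (adjusted p 0.061 to 0.100), and both calls with normexp background correction (adjusted p = 0.125 and 0.287). Ces2a, Ces2e and Ces2f, which share the cluster, were not above background on any array.

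Jam2 and Vcam1 code for adhesion proteins of the immunoglobulin superfamily. JAM2, or JAM-B, sits at cell junctions and binds JAM3 and integrin α4β1, and VCAM1 is the main counter-receptor of that integrin. Jam2 signal was -3.68 and -3.60 in control, -5.50 and -5.32 in IRF8-labelled and -0.39 and -0.41 in KLF4-labelled cells. Replicate arrays were close, and both IRF8-labelled arrays were below background. The log2 differences were -1.77 and 3.24 (SE 0.10, n = 2), or at least 2.52-fold lower with IRF8 and 9.44-fold higher with KLF4. A second Jam2 probe gave the rise but not the fall. It read -6.34 and -5.67 in control, -6.66 and -4.82 in IRF8-labelled and -3.38 and -3.09 in KLF4-labelled cells. Only 1 of its 4 control and IRF8-labelled values was above background, its IRF8 difference was 0.27, and its KLF4 rise was at least 2.98-fold. It was the only one of the 13 probes whose groups overlapped.

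Vcam1 had the smallest rise of the 9 genes. Its signal was -2.09 and -1.92 in control, -3.44 and -3.29 in IRF8-labelled and -0.59 and -0.58 in KLF4-labelled cells, all above background. The log2 differences were -1.36 and 1.42 (SE 0.10, n = 2), which are 2.57-fold lower and 2.68-fold higher. A dimmer second probe was above background only on the KLF4-labelled arrays, at -4.26 and -4.33, where it was at least 1.43-fold above control. No fold is given for its IRF8 difference, because both groups lay below background.

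Ly6a codes for Sca-1, a GPI-anchored surface protein that marks mouse blood stem and progenitor cells and is induced by interferon. Ly6a signal was -0.76 and -0.82 in control, -2.70 and -2.28 in IRF8-labelled and 1.03 and 1.20 in KLF4-labelled cells, above background throughout. The log2 differences of -1.70 and 1.90 (SE 0.16, n = 2) were close in size, 3.25-fold lower and 3.73-fold higher. The Ly6a profile was also the one nearest to the median profile of the 9 genes, at a root mean square distance of 0.09 on the log2 scale over the 6 arrays.

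**Figure D1:**
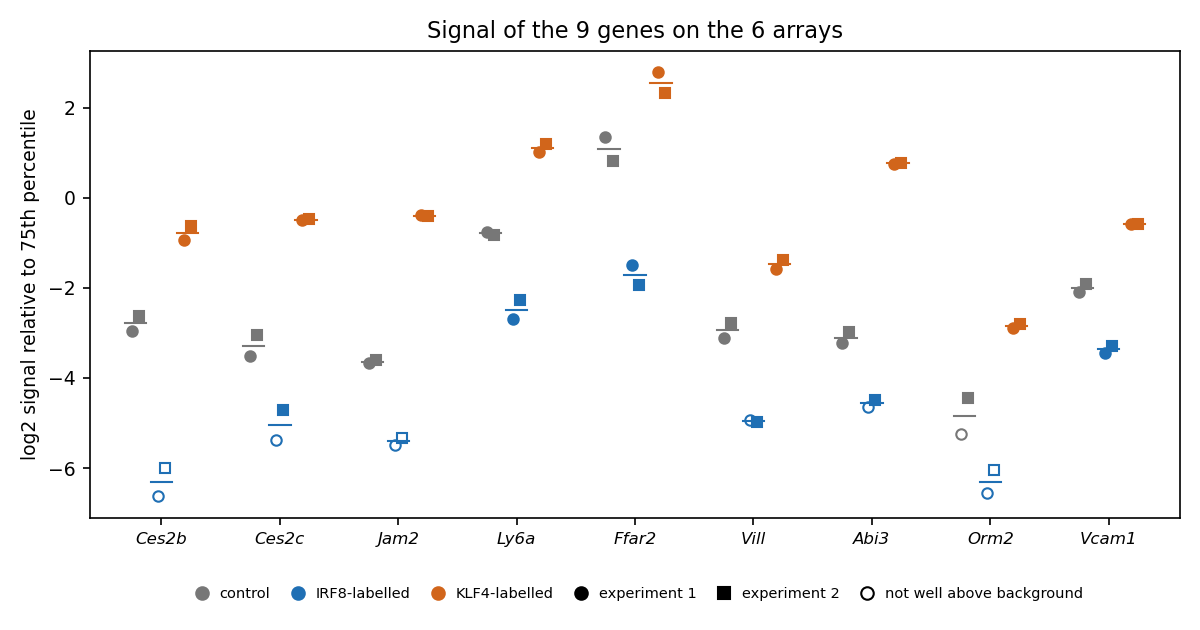
Log2 signal relative to the 75th percentile of each array (vertical axis) for the 9 genes (horizontal axis), with 1 point per array and a line at each group mean. For every gene both IRF8-labelled points lie under both control points and both KLF4-labelled points above them; open points, most of them IRF8-labelled, were not well above background.

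Ffar2 codes for a receptor of short-chain fatty acids such as acetate, found on neutrophils and monocytes. It had the highest control signal relative to the 75th percentile, 1.35 and 0.83, against -1.49 and -1.93 in IRF8-labelled and 2.79 and 2.32 in KLF4-labelled cells. All 6 arrays were above background, so its fall was measured in full. The log2 differences were -2.80 and 1.47 (SE 0.27, n = 2), or 6.97-fold lower and 2.77-fold higher. Experiment 2 was lower than experiment 1 in every group for this gene, and within the experiments the differences were alike, -2.84 and -2.76 with IRF8 and 1.45 and 1.49 with KLF4.

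Vill and Abi3 code for proteins of the actin skeleton. Villin-like protein belongs to the villin and gelsolin family, whose members bind actin. ABI3 belongs to the Abl interactors, which sit in the WAVE complex that starts actin branching. Vill signal was -3.11 and -2.77 in control, -4.92 and -4.99 in IRF8-labelled and -1.58 and -1.38 in KLF4-labelled cells. The log2 differences were -2.01 and 1.46 (SE 0.15, n = 2), or 4.03-fold lower and 2.76-fold higher. Abi3 had the largest rise of the 9 genes. Its signal was -3.23 and -2.98 in control, -4.65 and -4.48 in IRF8-labelled and 0.75 and 0.77 in KLF4-labelled cells. The log2 differences were -1.46 and 3.87 (SE 0.12, n = 2), which are 2.76-fold lower and 14.6-fold higher. For each of these genes 1 of 2 IRF8-labelled arrays was above background.

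Orm2 codes for an α1-acid glycoprotein, a secreted acute phase protein made chiefly by liver. It was the dimmest of the 9 genes relative to the percentile, with -5.23 and -4.44 in control, -6.56 and -6.04 in IRF8-labelled and -2.88 and -2.79 in KLF4-labelled cells. Above background were 1 control array, no IRF8-labelled array and both KLF4-labelled arrays. The log2 differences were -1.46 and 2.00 (SE 0.31, n = 2), of which the fall is at least 1.12-fold and the rise is 4.01-fold. The rise is not bounded for replicate 1 of control, which read -5.23, below that array's floor of -4.32. Orm2 also had the widest gap between experiments, with a rise of 2.35 in the first, which rests on that array, and 1.65 in the second.

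**Figure D2:**
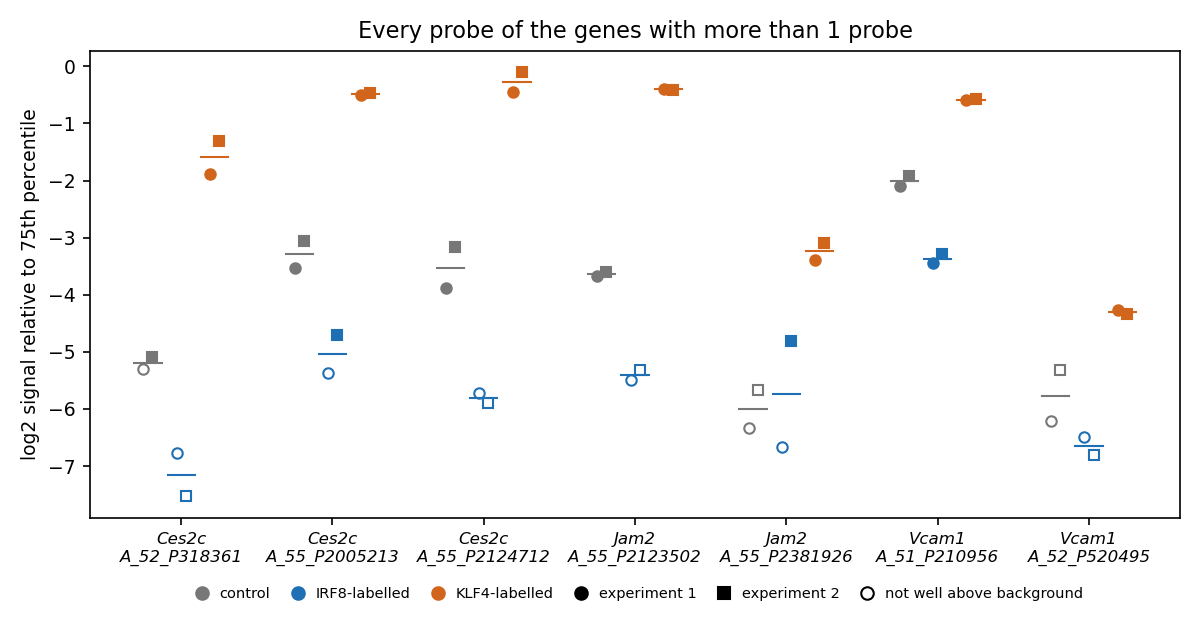
Log2 signal relative to the 75th percentile (vertical axis) for each probe of Ces2c, Jam2 and Vcam1, the genes with more than 1 probe, with 1 point per array, open where not well above background, and a line at each group mean. The groups keep their order for 6 of the 7 probes shown; for the second Jam2 probe the control and IRF8-labelled points overlap.

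Side by side, the 9 genes had a median log2 difference of -1.75 with IRF8 and 2.00 with KLF4, beside -0.13 and -0.16 over all 13247 genes tested. Both comparisons use the same control arrays. With groups below background at their bound the IRF8 median is -1.70. The direct difference of KLF4-labelled from IRF8-labelled cells had a median of 4.27, or 4.22 with such groups at their bound, beside 0.01 over all genes. The balance of fall and rise can be read in full only for the genes above background on all arrays: Ffar2 fell further than it rose, and for Ly6a and Vcam1 the sizes were close. Within each experiment taken alone, all 36 differences from control had the sign for which the gene was chosen. These signs are fixed where the groups do not overlap, as for the 9 genes chosen and for 1.57% of genes tested, so nothing is read from them. The same difference varied between experiments by at most 0.47 with IRF8 and 0.70 with KLF4. All 9 genes were above background on both KLF4-labelled arrays, 8 on both control arrays and only Ly6a, Ffar2 and Vcam1 on both IRF8-labelled arrays. In RNA from whole cultures, fewer cells with a transcript and less of it in each cell cannot be told apart.

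In the fit over all genes, 60 of those tested (0.453%) were called lower with IRF8 and higher with KLF4 at an adjusted p of 0.05. The 9 genes are among them, from which nothing is read, since they were chosen on these values. Either comparison alone called far more: 61.5% of genes with IRF8 (35.7% lower, 25.8% higher) and 19.2% with KLF4 (8.86% lower, 10.4% higher). Between the transduced groups 50.5% were called, 26.8% lower and 23.7% higher in IRF8-labelled cells. In all, 67 genes (0.506%) were called in the opposite pattern, higher with IRF8 and lower with KLF4. Arrays ordered without overlap, IRF8-labelled under control under KLF4-labelled, were found for all 9 genes and for 1.57% of genes tested. Of the 60 genes, 20 changed at least 2-fold in both comparisons, and the 9 are among them. Ranked by the smaller of the 2 changes, Ces2b had rank 1 and Vcam1 rank 13, and the other genes between them were Mmp9, C5ar1, Stfa3 and Itgb3. The next gene named by a symbol other than a clone or locus was Asprv1, at rank 15, with differences of -2.77 and 1.35. At the edge of the 60 genes by adjusted p, Krtdap (0.0475), Slc6a12 (0.0474), Pot1b (0.0472), Grxcr1 (0.0432) and Hsd11b1 (0.0414) lay just inside, and Gmpr (0.0553), Csta3 (0.0560), Rnase10 (0.0567), Iqsec1 (0.0584) and Gpr84 (0.0587) just outside.

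**Figure D3:**
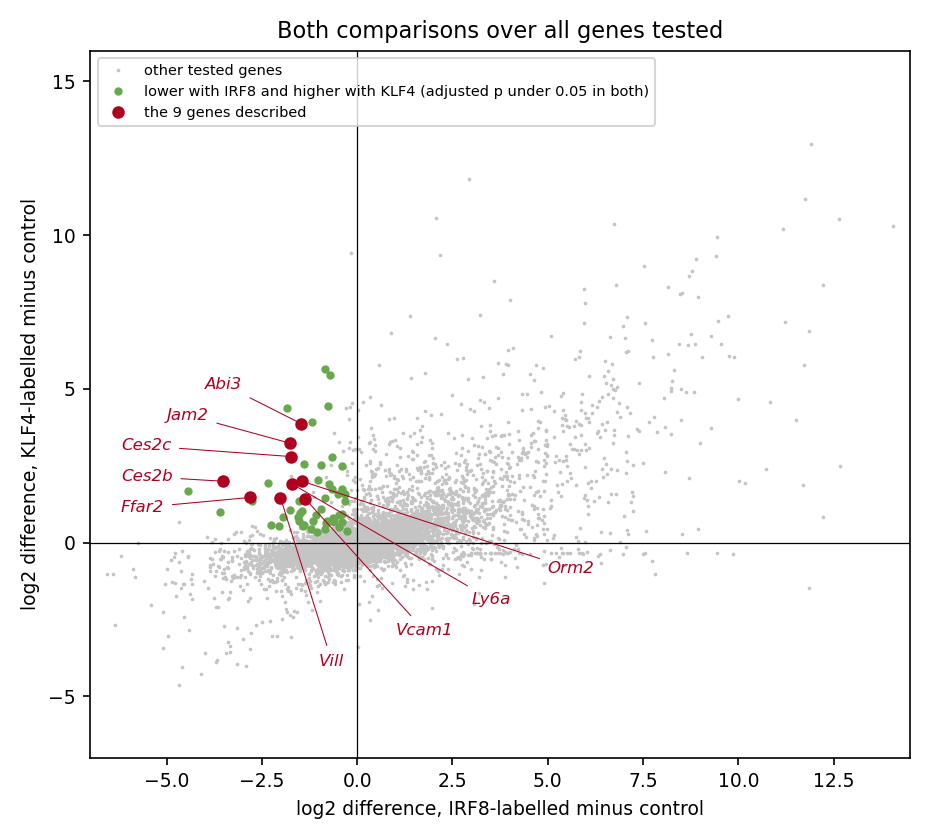
Log2 difference of IRF8-labelled (horizontal axis) and KLF4-labelled cells (vertical axis) from the same control arrays, 1 point per gene tested. Both axes share the control arrays, so no relation between them is read; the 9 genes, in red, lie in the upper left with the other genes of the 60 called lower with IRF8 and higher with KLF4, in green.

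The genes whose profiles over the 6 arrays lay nearest to the median profile of the 9 were picked by that distance, so their values are a description too. Nearest was Mmp9, gelatinase B of neutrophil granules, at a root mean square distance of 0.38 on the log2 scale, with differences of -2.34 (at least 1.93-fold lower) and 1.94. Itgb3, the integrin β3 chain of platelets and osteoclasts, followed at 0.39 with -1.40 (at least 1.47-fold lower) and 2.55, and Slc39a4, a zinc importer, at 0.40 with -1.03 and 2.04. Mgll, a monoacylglycerol lipase, lay at 0.51 (-1.76 and 1.07), Lypd6b at 0.56 (-0.94, at least 1.31-fold lower, and 2.51) and Slc16a3, a lactate exporter, at 0.58 (-1.51 and 0.98). Prss12, a serine protease, lay at 0.58 (-1.45 and 1.02), and F5, coagulation factor V, at 0.59 (-0.74 and 1.91). All 8 are among the 60 genes in the fit reported, but several calls were lost under other settings. With normexp correction Mmp9, Lypd6b and Prss12 lost both calls and Itgb3 its IRF8 call. Itgb3 also lost that call with the mean of its probes (adjusted p = 0.086). The IRF8 difference of Lypd6b was -0.29 with the deposited values (adjusted p = 0.600). Spike-in scaling lost the KLF4 calls of Mgll, Slc16a3 and Prss12. With no filter Prss12 lost its KLF4 call too (adjusted p = 0.075). The 9 genes themselves spread more widely, from 0.09 for Ly6a and 0.22 for Orm2 to 1.06 for Ces2b and 1.12 for Abi3.

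Relatives and partners of the 9 genes were listed by family and function, not by value, and tested in the same fit. Over the 8 lists 138 genes were named, 134 were on the array and 83 were tested. With IRF8, 42 of the 83 rose and 24 fell, and with KLF4, 28 rose and 4 fell, beside shares of all genes of 25.8% higher and 35.7% lower, and of 10.4% and 8.86%. The 4 became 14 under the replicate block and 2 without replicate 2 of KLF4 or replicate 2 of control. The median differences of the 83 genes were 0.51 and 0.23. Between the transduced groups, 36 were higher and 25 lower in IRF8-labelled cells, beside 23.7% and 26.8% of all genes. Of the 83 listed genes tested, only F11r, Selp and C3 joined the 9 in falling with IRF8 and rising with KLF4. The lists are not complete: Lypd6b and the integrin chain Itgb3, both among the 60 genes with that pattern, were on none of them.

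**Figure D4:**
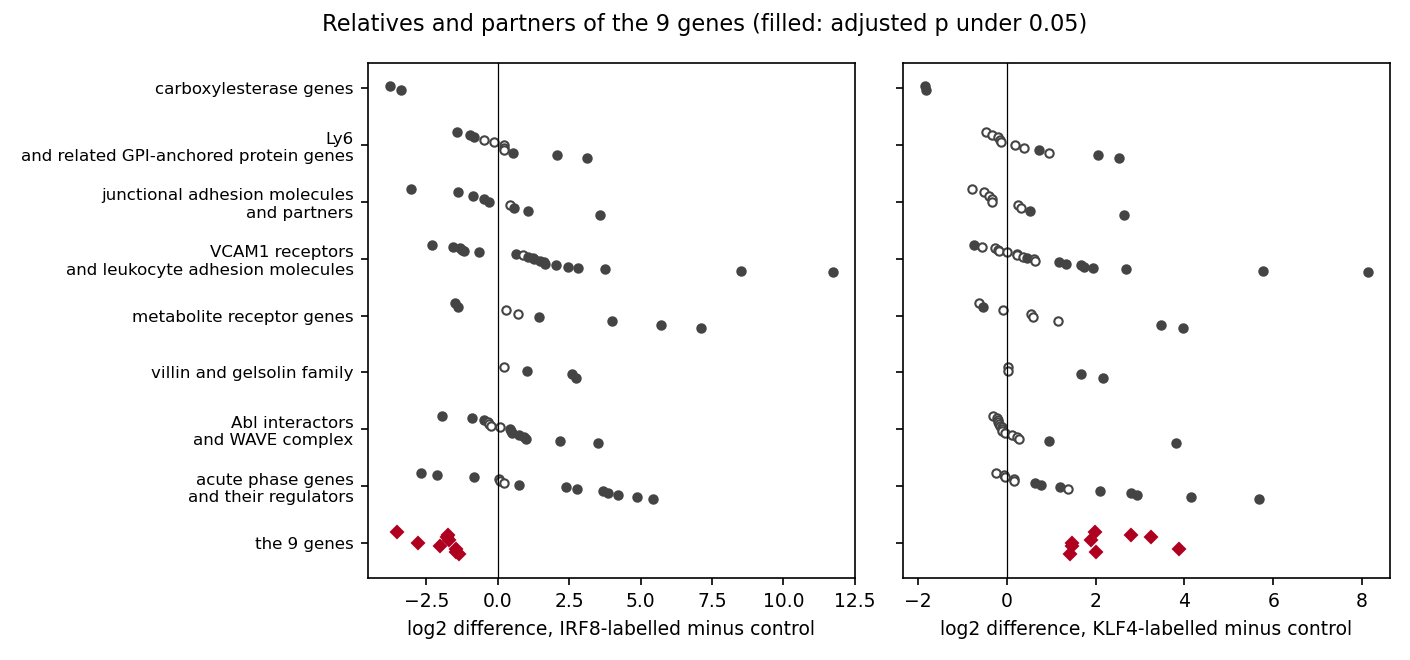
Log2 difference from control of IRF8-labelled (left panel) and KLF4-labelled cells (right panel) for the tested members of each list of relatives (rows), with filled points where the adjusted p was under 0.05 and red diamonds for the 9 genes. Points of most lists lie on both sides of 0 in the left panel; in the right panel filled points below 0 are few, and they include both carboxylesterases.

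Among the junctional adhesion molecules and their partners, 5 of 9 tested fell and 3 rose with IRF8, and 2 rose with KLF4. F11r, which codes for JAM-A, fell by 0.48 on the log2 scale with IRF8 (adjusted p = 0.00552), rose by 0.51 with KLF4 (adjusted p = 0.0175) and was 0.99 higher with KLF4 than with IRF8 (adjusted p = 0.000821). Its KLF4 call was lost with any 1 of the 6 arrays left out (adjusted p 0.053 to 0.103), and the IRF8 call with spike-in scaling (adjusted p = 0.166). Jam3, the partner of JAM2, was at least 2.00-fold lower with IRF8 (adjusted p = 0.000597), with a difference of -0.41 with KLF4 (adjusted p = 0.0872), and the IRF8 call was lost with normexp background correction (adjusted p = 0.307). Cxadr, the coxsackievirus and adenovirus receptor, fell by 3.04 with IRF8 (adjusted p = 0.00233), with a KLF4 difference of -0.50 (adjusted p = 0.414). Clmp, a related junction protein, rose in both comparisons, by 3.60 (adjusted p = 0.000102) and 2.63 (adjusted p = 0.000938). Igsf5, or JAM4, had differences of 0.44 (adjusted p = 0.151) and -0.79 (adjusted p = 0.0717), the first called with either KLF4-labelled array left out (adjusted p = 0.034 for each) and the second without replicate 1 of KLF4 or with the replicate block (adjusted p = 0.027 for each).

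The receptor of VCAM1, integrin α4β1, is made from Itga4 and Itgb1. Itga4 fell by 1.27 with IRF8 (adjusted p = 0.00653), with a KLF4 difference of -0.27 (adjusted p = 0.433) that was called under the replicate block (adjusted p = 0.029). Itgb1 rose by 0.63 with IRF8 (adjusted p = 0.00334), and by 0.45 with KLF4 (adjusted p = 0.0358), the latter lost with any 1 array left out (adjusted p 0.075 to 0.159). Of the 20 tested genes of leukocyte adhesion, 13 rose and 6 fell with IRF8, and 9 rose and 1 fell with KLF4. Itgb7, the other partner chain of Itga4, was at least 223-fold higher with IRF8 (adjusted p = 2.08e-05) and at least 169-fold higher with KLF4 (adjusted p = 7.19e-05). Itgax, the CD11c chain of dendritic cells and macrophages, was at least 929-fold and at least 14.9-fold higher (adjusted p = 9.31e-06 and 0.000156), and Itgb2, the common leukocyte β2 chain, rose by 2.82 and 2.67 on the log2 scale (adjusted p = 6.27e-05 and 0.000218). Icam1, the β2 integrin ligand that, like Vcam1, is induced in inflamed endothelium, rose in both, by 2.44 (adjusted p = 0.000510) and 1.67 (adjusted p = 0.00833). Alcam rose by 3.75 (adjusted p = 2.30e-05) and 1.34 (adjusted p = 0.00161). Selp, the P-selectin gene, fell by 0.66 with IRF8 (adjusted p = 0.0230) and rose by 1.74 with KLF4 (adjusted p = 0.00343).

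Of 11 tested genes on the list of Ly6a relatives, which did not hold Lypd6b, 3 rose and 3 fell with IRF8. With KLF4, 3 rose and none fell. Ly6c1, a neighbour of Ly6a on chromosome 15 whose antigen marks monocytes, fell by 1.42 with IRF8 (adjusted p = 0.00313), with a KLF4 difference of -0.15 (adjusted p = 0.637). Its probe may also read its near-identical paralogue. Ly6e rose by 0.53 with IRF8 (adjusted p = 0.00378), a call lost with spike-in scaling (adjusted p = 0.271), and its KLF4 difference was 0.19 (adjusted p = 0.170). Ly6f had an IRF8 difference of 0.23 (adjusted p = 0.700), called without replicate 1 of IRF8 (adjusted p = 0.020), and was at least 2.36-fold higher with KLF4 (adjusted p = 0.0268). The KLF4 call was lost with either KLF4-labelled or either control array left out (adjusted p 0.076 to 0.136). Plaur, the urokinase receptor, rose by 3.13 with IRF8 (adjusted p = 2.71e-05) and 2.06 with KLF4 (adjusted p = 0.000260). Lynx1 rose by 2.07 with IRF8 (adjusted p = 0.000420) and 0.73 with KLF4 (adjusted p = 0.0440), the latter lost with either KLF4-labelled or either control array left out (adjusted p 0.110 to 0.168). With the mean of its probes the IRF8 call was lost (adjusted p = 0.077) and the KLF4 difference was -0.33 (adjusted p = 0.551).

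Ffar3, the gene of the other short-chain fatty acid receptor and a neighbour of Ffar2 on chromosome 7, had differences of 0.29 with IRF8 (adjusted p = 0.169) and -0.09 with KLF4 (adjusted p = 0.679). Without replicate 2 of control the first was called (adjusted p = 0.022). Of 8 tested metabolite receptor genes, 4 rose and 2 fell with IRF8, and 2 rose and 1 fell with KLF4. Gpr84, a receptor of medium-chain fatty acids, read 4.43 and 4.70 in control, 3.01 and 3.34 in IRF8-labelled and 5.10 and 5.23 in KLF4-labelled cells. It fell by 1.39 with IRF8 (adjusted p = 0.00125), and its KLF4 difference of 0.60 (adjusted p = 0.0587) was called under the replicate block (adjusted p = 0.010). Hcar2, the niacin receptor, rose by 7.12 and 3.46 (adjusted p = 4.41e-05 and 0.00127), and Ptafr, the receptor of platelet-activating factor, by 5.73 and 3.97 (adjusted p = 1.15e-05 and 8.02e-05). Gpr183, an oxysterol receptor, was at least 5.02-fold higher with IRF8 (adjusted p = 0.000376), with a KLF4 difference of 1.16 (adjusted p = 0.0640).

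No tested relative of Vill fell. Of 4 villin and gelsolin genes, 3 rose with IRF8 and 2 with KLF4, and Vil1, villin itself, was too dim to test. Gsn, gelsolin, rose by 2.59 (adjusted p = 2.85e-05) and 1.66 (adjusted p = 0.000307), and Capg, a filament capper of macrophages, by 2.74 (adjusted p = 0.000159) and 2.17 (adjusted p = 0.00120). Flii rose by 1.02 with IRF8 (adjusted p = 0.000366), with a KLF4 difference of 0.03 (adjusted p = 0.828). Of 15 genes of the Abl interactors and the WAVE complex, 8 rose and 3 fell with IRF8 and 2 rose with KLF4. Abi1 rose by 0.99 with IRF8 (adjusted p = 0.000693), with a KLF4 difference of 0.22 (adjusted p = 0.156). Abi2 fell by 0.47 with IRF8 (adjusted p = 0.0146), a call lost without replicate 2 of IRF8 (adjusted p = 0.075) or replicate 1 of control (adjusted p = 0.067). Its KLF4 difference was -0.22 (adjusted p = 0.204), called under the replicate block (adjusted p = 0.041). Nckap1, a WAVE complex subunit, rose by 3.50 and 3.82 (adjusted p = 0.000352 and 0.00107). Its blood cell paralogue Nckap1l rose by 2.17 and 0.95 (adjusted p = 0.000137 and 0.00817), the latter lost without replicate 2 of KLF4 (adjusted p = 0.065). Cyfip2, another subunit, fell by 1.96 with IRF8 (adjusted p = 0.000977), with a KLF4 difference of -0.31 (adjusted p = 0.323) that was called under the replicate block (adjusted p = 0.019).

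Orm1, the paralogue next but 1 to Orm2 on chromosome 4, showed the rise of Orm2 without its fall. Its signal was -6.19 and -6.43 in control, -5.14 and -7.30 in IRF8-labelled and -3.48 and -3.27 in KLF4-labelled cells, above background only in the last. It was at least 2.71-fold higher with KLF4 (adjusted p = 0.0458), and its IRF8 difference was 0.09 (adjusted p = 0.918). The KLF4 call was lost with either KLF4-labelled or either control array left out (adjusted p 0.119 to 0.181), and the IRF8 difference was -0.99 without replicate 1 of IRF8 (adjusted p = 0.0125) and 1.17 without replicate 2 (adjusted p = 0.007). Orm3, which stands between them, was above background on no array, and whether a probe reads more than 1 of these near-identical transcripts was not tested. Of 14 tested acute phase genes and regulators, 8 rose and 3 fell with IRF8, and 8 rose and none fell with KLF4. Saa3, a serum amyloid A of macrophages, rose by 5.45 and 4.14 (adjusted p = 9.31e-06 and 5.06e-05), and Saa1 by 4.23 and 2.80 (adjusted p = 5.41e-05 and 0.000606). Cp, ceruloplasmin, was at least 8.52-fold and at least 14.9-fold higher (adjusted p = 0.000534 and 0.00130). Lcn2, a neutrophil granule protein that binds siderophores, fell by 2.70 with IRF8 (adjusted p = 3.87e-05), with a KLF4 difference of -0.25 (adjusted p = 0.125) that was called under the replicate block (adjusted p = 0.035). Complement C3 fell by 0.83 with IRF8 (adjusted p = 0.00127) and rose by 0.63 with KLF4 (adjusted p = 0.0146). Il6st, the gp130 chain, rose by 3.87 with IRF8 (adjusted p = 0.000231) and by 1.20 with KLF4 (adjusted p = 0.0375), the latter lost with any 1 array left out (adjusted p 0.052 to 0.150).

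Position on the chromosome was examined through the 3 coding genes on each side of every member, 48 genes in all of which 32 were tested. With IRF8, 13 fell (40.6%, beside 35.7% of all genes) and 10 rose (31.2%, beside 25.8%). With KLF4, 9 rose (28.1%, beside 10.4% of all genes) and 5 fell (15.6%, beside 8.86%). The 9 became 4 without replicate 1 or 2 of KLF4 or replicate 1 of control, and 4 with no filter. Only Krtdap, near Ffar2, was called lower with IRF8 and higher with KLF4. The following 4 were singled out after their values were seen. Krtdap, a keratinocyte protein, was at least 19.1-fold higher with KLF4 (adjusted p = 0.000318). Its IRF8 call (adjusted p = 0.0475) lay between 2 groups that were both below background, and it was lost without replicate 2 of IRF8 or any 1 of the KLF4-labelled or control arrays (adjusted p 0.072 to 0.164), and with the replicate block (0.0717), quantile normalization (0.184) and normexp (0.827). Gngt2, a G protein γ subunit gene next to Abi3, rose by 5.98 with KLF4 (adjusted p = 2.51e-05) and, unlike Abi3, also rose by 2.61 with IRF8 (adjusted p = 6.45e-05). Plcd1, a phospholipase gene next to Vill, rose by 1.30 with IRF8 (adjusted p = 0.000240) and 1.64 with KLF4 (adjusted p = 0.000434). Rrad, near Ces2b, rose by 3.21 with KLF4 (adjusted p = 0.00346), and its IRF8 difference was 0.84 (adjusted p = 0.0710), called without replicate 2 of control (adjusted p = 0.002).

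Markers of other cell types moved beside the 9 genes in part. The summed fibroblast markers ranged from 0.284 to 0.303 times the 75th percentile in control, from 0.211 to 0.296 in IRF8-labelled and from 2.18 to 2.27 in KLF4-labelled cells. That rise was in Thy1, also a lymphocyte surface protein, with a KLF4 difference of 4.43 on the log2 scale, the only one of 10 fibroblast markers above background on all arrays. Summed endothelial markers were 22.2 to 22.9 in control, 17.7 to 22.0 in IRF8-labelled and 24.7 to 28.4 in KLF4-labelled cells. Of these markers Vwf, von Willebrand factor, differed from control by 5.98 with IRF8 and 7.78 with KLF4, whereas the KLF4 differences of Egfl7, Kdr and Plvap, above background on all arrays, were -0.40, -0.20 and 0.03. Summed myeloid progenitor markers were 1729 to 2318, 842 to 1006 and 1302 to 1971. These markers did not move together with IRF8. The differences were -0.87 for Mpo, -2.84 for Elane, -2.60 for Prtn3, -1.37 for Ctsg and -2.66 for Myb. They were 2.01 for Ptprc, 1.85 for Csf2rb, 0.78 for Csf2ra and 0.69 for Spi1. Lymphocyte markers summed to 8.29 to 8.36, 5.45 to 6.41 and 7.70 to 9.11. The sums for epithelial markers, 1.98 to 2.32, 1.41 to 1.45 and 1.80 to 1.95, and for liver markers, 0.227 to 0.228, 0.208 to 0.241 and 0.152 to 0.212, were not highest in KLF4-labelled cells. The part of other cell types in the values of the 9 genes was not tested.

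The falls of the dim genes were smaller with normexp correction, which here adds an offset of 50 to every spot. Such an offset shrinks differences between dim signals by construction, so nothing is read from the smaller values. The part of the background correction itself was not tested. With normexp correction all 18 differences kept their sign but most were smaller, and the falls became -1.10 for Ces2b, -0.67 for Ces2c, -0.55 for Jam2, -0.65 for Abi3, -0.88 for Vill, -0.81 for Vcam1 and -0.44 for Orm2. The brighter genes kept more, -2.37 for Ffar2 and -1.23 for Ly6a. The rises became 0.42 for Orm2, 0.84 for Vill, 1.12 for Vcam1, 1.28 for Ces2b, 1.80 for Ces2c, 2.18 for Jam2 and 3.01 for Abi3.

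**Figure D5:**
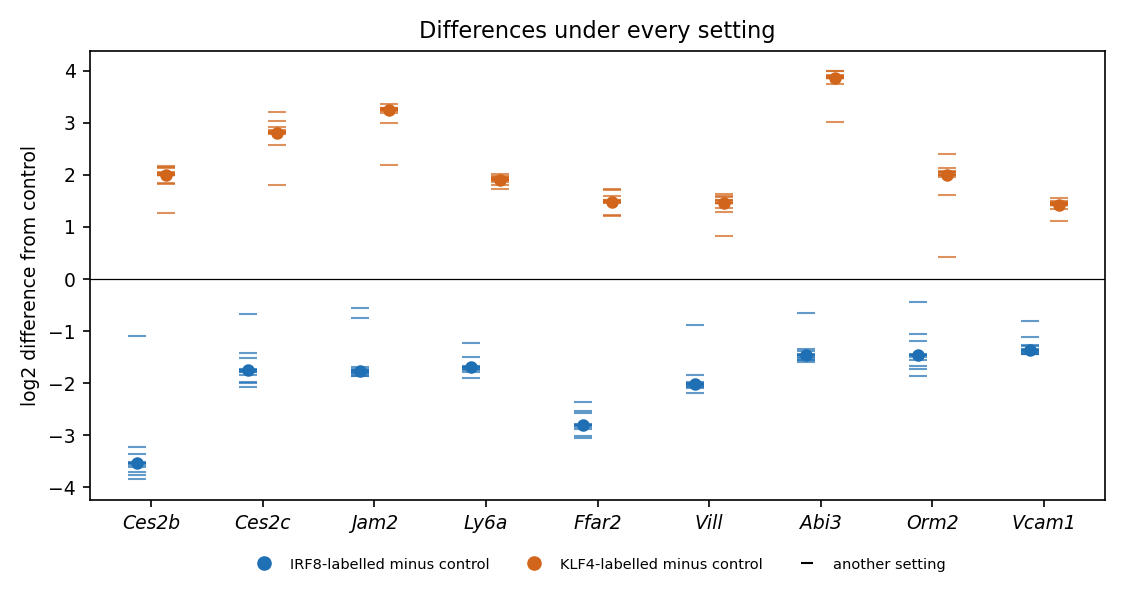
Log2 difference from control (vertical axis) of each of the 9 genes with IRF8 (blue) and KLF4 (orange), with a point for the value reported and a dash for each other setting of scaling, background correction, filter, probe averaging or left-out array. All dashes stay on the side of 0 of their point; the normexp falls run from -2.37 for Ffar2 to -0.44 for Orm2.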

How the data were processed

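Total RNA from 6 Tot2 cultures was hybridised to Agilent mouse arrays in 1 colour. The deposited scanner files hold spot intensity, which per the file headers Agilent Feature Extraction 10.7.3.1 had corrected for background and spatial trend array by array, without scaling arrays to each other. The deposited value table, also intensity, was each array's processed signal times 1 factor (0.642 to 1.39) for all but 120 to 163 of 55606 probes per array to within 1%, and served as an alternative.

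Control spots and marked spots were left out, spots of a probe were averaged, and the log2 processed signal was set against its own array's 75th percentile. The files name probes by accession; 26728 probes were matched to 20263 genes in RefSeq (GRCm38.p6), and the array was designed on mm9, so no coordinates of genes are given. For a gene with several probes the one with the highest mean was used. Genes were kept if 1 group or more had the probe well above background on its 2 arrays, and the 13247 kept entered 1 limma 3.58.1 fit (R 4.3.3) with 3 groups and 3 residual degrees of freedom, 2-sided, with Benjamini-Hochberg adjustment over all genes and a threshold of 0.05. Every adjusted p in the text comes from it or from the alternative named beside it. With 2 arrays per group, p-values rest on few degrees of freedom. The procedure was tested on simulated data. SE is limma's, for a difference between 2 groups.

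The members and lists were chosen with earlier results of these data known. Relatives named are up to 4 per list with the largest called change, plus members' nearest paralogues and partners; the F11r, Selp and C3 overlap and the neighbours were named after their values were seen. The replicate number was taken to mark the experiment. Deviations of same-numbered arrays from group means correlated across genes (r = 0.282 for control and IRF8, 0.321 for control and KLF4, and 0.391 for the transduced pair). The 75th percentile was also lower on all replicate 1 arrays (436 to 551) than on all replicate 2 arrays (852 to 974). Its part in these correlations was not tested. That the numbers pair the samples is thus an assumption. The fit reported does not use the pairing, and the replicate block was fitted as an alternative. Others were quantile, median and spike-in scaling (8 probes), normexp on the median signal and background (offset 50; the mean signal was not used here), no filter, a filter on all 6 arrays, the mean of a gene's probes, each probe of a member, limma with trend and robust settings, and each array left out in turn. The list of neighbours and its alternatives were added after seeing the data.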

Additional observations from a re-analysis of the deposited data

How the results depend on the processing

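All 18 differences of the 9 genes kept their sign under every setting run on the probe used or on the mean of probes; by single probes, the second Jam2 probe had an IRF8 difference of 0.27. The 9 genes were chosen on these comparisons, so the number of them past the threshold in both is a description and tests nothing: 9 in the fit reported, 3 when only genes above background on all 6 arrays were kept (only 3 were), and 6 to 9 with an array left out. Genes called with IRF8 numbered 8147, and 4987 with spike-in scaling. Genes called with KLF4 numbered 2547, against 1499 with median scaling, 974 with no filter, 1052 with normexp, 905 with spike-in scaling, 6744 with the replicate block, and 883 to 1499 with an array left out. Between the transduced groups 6695 were called, and 3067 with spike-in scaling. The genes lower with IRF8 and higher with KLF4 numbered 60, against 28 with no filter, 25 with normexp, 25 with spike-in scaling, 128 with the replicate block, and 28 to 44 with an array left out. Relatives that fell with KLF4 numbered 4, against 2 with no filter, 1 with normexp, 2 with spike-in scaling, 14 with the replicate block, and 2 to 3 with an array left out; those higher with IRF8 than with KLF4 numbered 36, and 17 with spike-in scaling. Neighbours that rose with KLF4 numbered 9, against 4 with no filter, 5 with spike-in scaling and 4 to 7 with an array left out. Of single named genes, the KLF4 difference of Lynx1 became -0.33 with the mean of its probes and the IRF8 difference of Orm1 ran from -0.99 without replicate 1 of IRF8 to 1.17 without replicate 2. Over all results, settings and arrays left out, 2686 values kept their direction and call or, with no test, moved by less than the replicate spread, and 162 lost a call. The median difference of all genes with KLF4 moved from -0.16 to -0.04 with median scaling, and that between the transduced groups from -0.01 to -0.17. The causes of these changes were not tested, except that the filters change the genes tested and the normexp offset shrinks differences between dim signals. A left-out array leaves fewer samples, with the lone array of its group assumed to vary like the others. Signals under the background floor limit the falls of Ces2b, Jam2 and Orm2. They also limit those of Ces2c, Vill and Abi3, whose replicate 1 of IRF8 read -5.37, -4.92 and -4.65 against that array's floor of -4.62. The folds given for the falls of Ces2c, Vill and Abi3 are thus not bounded for it. The rise of Orm2 is likewise not bounded for replicate 1 of control, which read -5.23 against that array's floor of -4.32.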
